A study of Schizosaccharomyces pombe with 6 samples.

Results

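The weakly expressed long non-coding RNAs (lncRNAs) of fission yeast, Schizosaccharomyces pombe, are the annotated non-coding RNAs that gave few reads in growing wt cells. They were chosen by level: identifiers of the SPNCRNA series whose mean over the 3 wt libraries was at least 1 and under 5 CPM (counts scaled to a common library total). The rule took 244 of the 1535 SPNCRNA features, which is 3.36% of the 7269 features counted. A further 158 lncRNAs stood at 5 CPM or more in wt and 1133 under 1 CPM. Of the 244 lncRNAs, 241 matched the reference annotation by identifier, with 106 on chromosome I, 84 on chromosome II and 51 on chromosome III.

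RNA-seq was carried out on vegetative haploid cells of 2 genotypes, wt and sad1.2 csi1Δ (the mutant), with 3 biological replicates each, to ask what centromere declustering does to gene expression. Sad1 is a SUN-family protein of the inner nuclear membrane at the spindle pole body, and Csi1 helps to hold centromeres there. The sad1.2 allele and the csi1 deletion occur together in every mutant library and neither occurs in the wt libraries, so their contributions cannot be told apart. All cultures, asynchronous and in exponential growth, were in rich medium at 30 °C, and mRNA was enriched from total RNA with oligo-dT before paired-end sequencing.

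In fission yeast much of the genome outside coding genes is transcribed by RNA polymerase II. Many of the products are held at low levels by the nuclear exosome and its adaptors, by RNA interference and by chromatin factors that limit transcription from cryptic start sites. A few have known roles, among them meiRNA, the product of sme2, which binds the RNA elimination factor Mmi1 during meiosis.

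Library totals lay between 19074531 and 19951875 counts. The deleted gene followed the labels: the 3 wt libraries held 1271, 1142 and 1225 counts of csi1, the mutant libraries 210, 204 and 63 (log2 fold change −3.08, SE 0.382, edgeR adjusted p = 0.0188). Some csi1 reads thus remained in every mutant library, at 10.6, 10.4 and 3.17 CPM beside a wt mean of 61.7 CPM. Their source was not tested. Reads of sad1 averaged 78.5 ± 4.05 CPM in wt and 160 ± 12.8 CPM in the mutant (SD, n = 3 each; log2 fold change 0.90, SE 0.0728, edgeR adjusted p = 0.00639). Libraries did not differ evenly within a genotype. Over all genes, the chi-square per degree of freedom was 9.12 between wt replicates 1 and 3, against 127 and 98.3 for the pairs with wt replicate 2. Among the mutant libraries it was 41.2 for replicates 1 and 2, and 118 and 64.9 for the pairs with replicate 3.

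The weakly expressed lncRNAs took a larger share of the counts in every mutant library than in any wt library. Their summed share was 0.0629%, 0.0663% and 0.0646% of the library in wt replicates 1 to 3, and 0.14%, 0.103% and 0.0888% in mutant replicates 1 to 3. The genotypes did not overlap, and mutant replicate 1 stood highest. The means were 0.0646 ± 0.00169% and 0.111 ± 0.0263% (SD, n = 3 each), a ratio of 1.71. A larger share in every mutant library was not particular to these lncRNAs. Coding genes of the same wt level, 1 to 5 CPM, took 0.0519%, 0.0431% and 0.0519% of wt replicates 1 to 3. Mutant replicates 1 to 3 gave these coding genes 0.112%, 0.0797% and 0.0628%. The lncRNAs at 5 CPM or more took at most 0.271% of a wt library and at least 0.315% of a mutant library. With 3 libraries against 3, an exact permutation test cannot give a p under 0.1, and none was run on a sum over lncRNAs chosen by their wt level. The summed share is small, and in bulk samples a change in the number of cells that carry an RNA cannot be told apart from a change in the amount per cell.

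**Figure D1:**
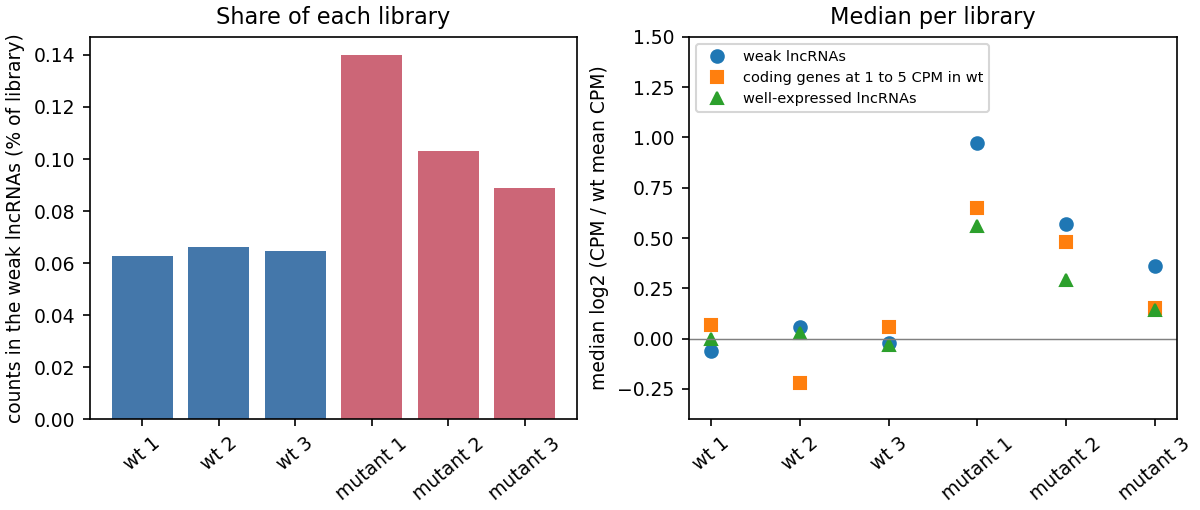
Left, the share of each library's counts (%) that fell in the 244 weakly expressed lncRNAs, 1 bar per library. Right, the median log2 ratio of each library's CPM to the mean wt CPM for the weakly expressed lncRNAs, the coding genes at 1 to 5 CPM in wt and the well-expressed lncRNAs. The mutant bars reach 0.14%, 0.103% and 0.0888%, above every wt bar, and the lncRNA medians in the mutant are 0.97, 0.57 and 0.36.

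Single lncRNAs rested on few reads. A lncRNA of the set had between 8 and 142 counts in a wt library, with a median of 47, and between 14 and 491 in a mutant library. The mean wt level ran from 1.01 to 4.95 CPM (median 2.51) and the mean mutant level from 1.26 to 14.5 CPM (median 4.2). None averaged under 1 CPM in the mutant, and 78 averaged 5 CPM or more there. The coefficient of variation between replicates had a median of 21.5% in wt and 27% in the mutant.

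Just inside the lower limit of the rule were prl50 at 1.01 CPM, prl21 at 1.04 and SPNCRNA.730 at 1.04, and just outside it SPNCRNA.961 at 0.995, SPNCRNA.199 at 0.988 and SPNCRNA.661 at 0.981. Just inside the upper limit were SPNCRNA.1576 at 4.95 CPM, SPNCRNA.1297 at 4.92 and SPNCRNA.1477 at 4.86, and just outside it SPNCRNA.1666 at 5.14, SPNCRNA.830 at 5.16 and SPNCRNA.335 at 5.17. These values in wt chose the set and are given as a description. Wt values also enter every fold change, so the set was chosen again on 2 wt libraries at a time. The wt library left out then had a median log2 ratio to the mean of the other wt libraries of −0.11, 0.08 or −0.05, over 250, 235 and 243 lncRNAs. In the same choices the medians were 0.94 to 1.01 in mutant replicate 1, 0.53 to 0.59 in replicate 2 and 0.30 to 0.42 in replicate 3.

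Of the 244 lncRNAs, all of which passed the filter on low counts, 15 (6.15%) were higher in the mutant at an edgeR adjusted p under 0.05. The background was 2.29% of the 4941 features tested. None was lower (background 0.121%), and at an unadjusted p under 0.05 edgeR gave 95 higher (background 14.5%) and 1 lower (background 8.12%). DESeq2 called 48 higher (19.7%, against 6.56% of the features with an adjusted p) and 0 lower (background 2.63%), and limma voom called 8 higher (3.28%, against 1.6% of all features) and 0 lower. In the authors' deposited table, made from the same libraries, 46 of the 241 lncRNAs with an adjusted p were higher (19.1%, against 6.3% of all features there) and 0 were lower (background 2.54%), and all 15 edgeR calls were among those higher. The edgeR count of lncRNAs was 0 without wt replicate 1, without wt replicate 3 and without mutant replicate 2, and in these fits 0 of all features were called higher. It was 1 without mutant replicate 1 (SPNCRNA.1382; 0.342% of all features), 10 without wt replicate 2 (1.65% of all features) and 15 without mutant replicate 3 (2.91% of all features). With wt replicate 2 and mutant replicate 3 both left out it was 92 (37.7%, against 14.3% of all features tested). Which lncRNAs are called therefore depends on the tool and on the libraries, while the medians without each library in turn ran from 0.41 to 0.63.

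The difference was broad and moderate in size. By edgeR the median log2 fold change over the 244 lncRNAs was 0.54 (quartiles 0.25 and 0.87), against 0.00 over all features tested (quartiles −0.14 and 0.21). The authors' deposited table gave a smaller median, 0.3 over the 242 lncRNAs listed there, against 0.00 over all features with an adjusted p. In the edgeR fit a positive fold change was found for 221 lncRNAs (90.6%; background 50.7%). Every mutant library lay above every wt library in 124 lncRNAs (50.8%; background 24.5%) on CPM and in 100 (41%; background 16.7%) on CPM scaled by TMM, the composition factors of edgeR. Every mutant library lay below every wt library in 1 lncRNA on CPM (background 5.38%) and in 2 on the TMM scale (background 13.8%).

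**Figure D2:**
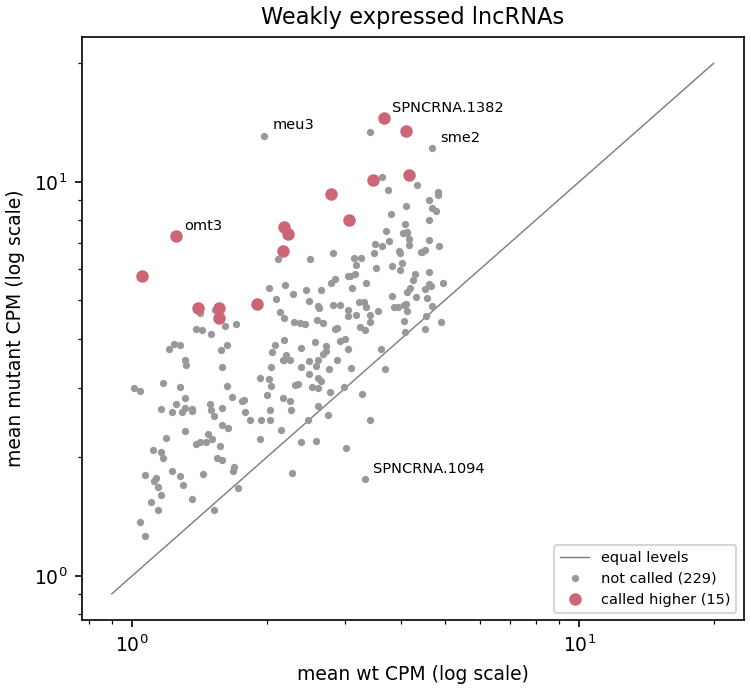
Mean mutant CPM against mean wt CPM for each of the 244 weakly expressed lncRNAs, both on log axes, with the line of equal levels. Most points lie above the line, 231 of 244, and the 15 called higher are marked.

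The size of the difference was not the same in the 3 mutant libraries. Relative to the mean wt CPM, the median log2 ratio of the lncRNAs was 0.97, 0.57 and 0.36 in mutant replicates 1, 2 and 3, and −0.06, 0.06 and −0.02 in the wt libraries. Over all features tested the mutant medians on this scale, which has no composition factor, were 0.24, 0.08 and 0.05. Mutant replicate 1 was the highest mutant library in 195 lncRNAs, replicate 2 in 22 and replicate 3 in 27. The highest wt library was exceeded by 216 lncRNAs in replicate 1, 178 in replicate 2 and 147 in replicate 3.

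The 15 lncRNAs that rose had log2 fold changes from 1.19 to 2.38, so each was at least 2-fold higher. In each, every mutant library lay above every wt library on CPM (background 24.5%). The 15 were called on these same libraries, so that separation is a description and adds no support. In 14 of them mutant replicate 1 was the highest library. Their adjusted p-values reached 0.0487, and 9 were at 0.04 or above. The annotation lists 6 of them as possible alternative UTRs, that is, as transcripts that may belong to a neighbouring mRNA.

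**Figure D3:**
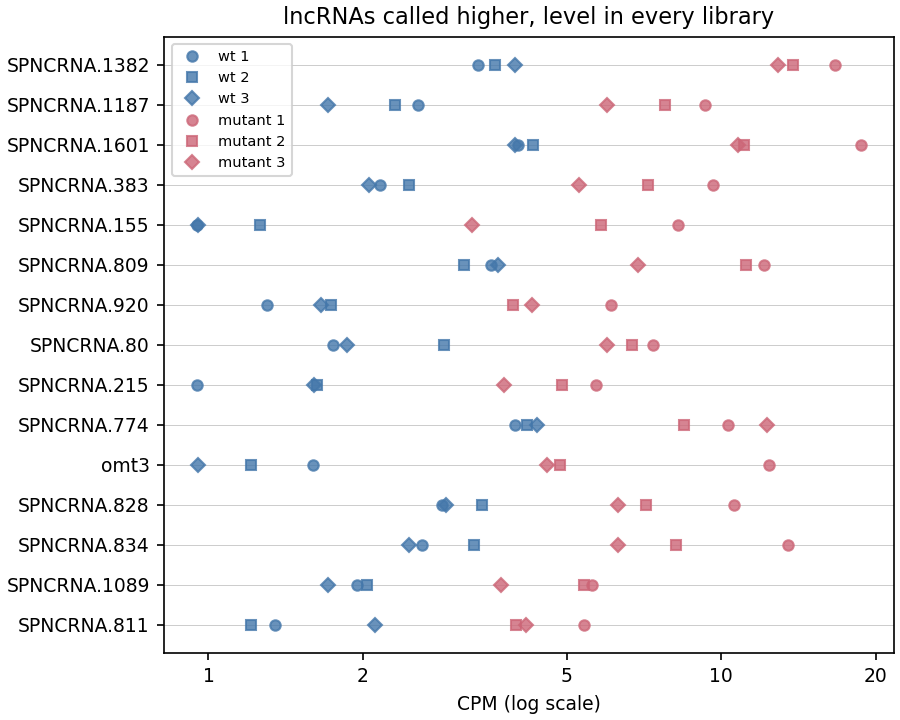
CPM (log axis) in each of the 6 libraries for the 15 weakly expressed lncRNAs called higher in the mutant, 1 row per lncRNA and 1 symbol per library. In each row the 3 mutant symbols lie to the right of the 3 wt symbols.

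The smallest adjusted p belonged to SPNCRNA.1382 on chromosome II, which overlaps ubc4, a ubiquitin-conjugating enzyme gene, on the opposite strand over 246 of its 1245 bases. It had 3.36, 3.62 and 3.97 CPM in wt and 16.7, 13.8 and 12.9 CPM in the mutant (log2 fold change 1.86, SE 0.159, edgeR adjusted p = 0.00639). It was also the highest of the 244 lncRNAs in the mutant, with a mean of 14.5 CPM, and ubc4 itself had a log2 fold change of −0.14 (adjusted p = 0.737). Next was SPNCRNA.1187 on chromosome III, a possible alternative UTR that shares 97 bases with rad21, the gene of a cohesin subunit. It had 2.56, 2.31 and 1.71 CPM in wt and 9.29, 7.76 and 5.98 CPM in the mutant (log2 fold change 1.67, SE 0.234, edgeR adjusted p = 0.0234). As in every call, no mutant library overlapped a wt library in either lncRNA, while rad21 had a log2 fold change of 0.30 (adjusted p = 0.217).

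SPNCRNA.1601 lies 2703 bases from csi1, the deleted gene. It had 4.01, 4.30 and 3.97 CPM in wt and 18.7, 11.1 and 10.8 CPM in the mutant (log2 fold change 1.58, SE 0.22, edgeR adjusted p = 0.0234), and it overlaps psu2, a gene listed at 0 in every library, on the opposite strand. SPNCRNA.1600, a lncRNA too abundant in wt for the set, lies nearer to csi1, at 148 bases. It stood at 36.1 CPM in wt and 92.4 CPM in the mutant, with a log2 fold change of 1.23 (edgeR adjusted p = 0.00639). No other weakly expressed lncRNA lay within 20 kb of csi1 or sad1. An effect of the altered locus on SPNCRNA.1601 was not tested.

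The largest fold changes among those called were those of omt3 and SPNCRNA.155, both on chromosome I and overlapping no other feature. The RNA of omt3 is a meiosis-specific lncRNA that gathers with Smp proteins in a nuclear focus at its own gene. It had 1.60, 1.21 and 0.954 CPM in wt and 12.4, 4.85 and 4.57 CPM in the mutant (log2 fold change 2.38, SE 0.425, edgeR adjusted p = 0.044). SPNCRNA.155 lies 46 bases from erg11, the gene of a sterol demethylase of ergosterol synthesis, and had 0.952, 1.26 and 0.954 CPM in wt and 8.23, 5.82 and 3.27 CPM in the mutant (log2 fold change 2.30, SE 0.355, edgeR adjusted p = 0.0316). In both, the highest and lowest mutant libraries differed by more than 2-fold. The coding gene erg11 had a log2 fold change of −0.07 (adjusted p = 0.825).

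In 3 of the called lncRNAs the nearest coding gene also rose. SPNCRNA.834, a possible alternative UTR that shares 70 bases with isp6, a gene of a vacuolar serine protease, had 2.61, 3.30 and 2.46 CPM in wt and 13.5, 8.17 and 6.28 CPM in the mutant. It differed by 1.59 on the log2 scale (SE 0.291, edgeR adjusted p = 0.0466), and isp6 by 1.14 (adjusted p = 0.0494). SPNCRNA.215 overlaps no other feature and had 0.952, 1.63 and 1.61 CPM in wt and 5.71, 4.90 and 3.77 CPM in the mutant. It differed by 1.64 on the log2 scale (SE 0.288, edgeR adjusted p = 0.0427).

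SPNCRNA.80 lies 421 bases from ecm33, the gene of a cell surface protein anchored by glycosylphosphatidylinositol. It had 1.75, 2.88 and 1.86 CPM in wt and 7.37, 6.69 and 5.98 CPM in the mutant (log2 fold change 1.49, SE 0.261, edgeR adjusted p = 0.0418), and ecm33 had a log2 fold change of 0.79 (adjusted p = 0.0344). For the other 11 called lncRNAs with a tested nearest coding gene, that gene did not pass the test. The 192 lncRNAs with a tested nearest coding gene had 187 such genes between them, of which 8 rose (4.28%, against 1.65% of all coding genes tested). The median log2 fold change of the neighbours was 0.00, and Spearman's rank correlation between lncRNA and neighbour was 0.19. That value is a description across genes, since neighbours share the libraries, and the strand setting of the counting is not known.

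SPNCRNA.774 was the one called lncRNA in which mutant replicate 1 was not the highest library. It overlaps nothing, lies 180 bases from pss1, a gene of an Hsp110-type chaperone, and had 3.96, 4.19 and 4.37 CPM in wt and 10.3, 8.47 and 12.3 CPM in the mutant (log2 fold change 1.19, SE 0.211, edgeR adjusted p = 0.0432). SPNCRNA.811 overlaps the Hsp70 gene ssa1 and had 1.35, 1.21 and 2.11 CPM in wt and 5.40, 3.98 and 4.17 CPM in the mutant (log2 fold change 1.41, SE 0.267, edgeR adjusted p = 0.0487). SPNCRNA.383, 311 bases from knh4, had 2.16, 2.46 and 2.06 CPM in wt and 9.64, 7.20 and 5.28 CPM in the mutant (log2 fold change 1.59, edgeR adjusted p = 0.031). In all 3 every mutant library lay above every wt library, as in the other calls. The call of SPNCRNA.811 was kept in only 2 of 16 alternative settings. The coding neighbours pss1, ssa1 and knh4 had log2 fold changes of −0.22, 1.10 and 0.35, with adjusted p-values of 0.487, 0.131 and 0.374.

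The remaining calls were SPNCRNA.809, SPNCRNA.828, SPNCRNA.1089 and SPNCRNA.920, all on chromosome I, with log2 fold changes of 1.41, 1.24, 1.24 and 1.47 and edgeR adjusted p-values of 0.0344, 0.0445, 0.0466 and 0.0404. SPNCRNA.809 lies in part opposite mrp5 and had 3.56, 3.15 and 3.67 CPM in wt and 12.1, 11.2 and 6.88 CPM in the mutant. SPNCRNA.920, of which 809 of 1255 bases lie opposite other features, had 1.30, 1.73 and 1.66 CPM in wt and 6.11, 3.93 and 4.27 CPM in the mutant. In all of these lncRNAs the lowest mutant library lay above the highest wt library. SPNCRNA.828 averaged 3.06 ± 0.303 CPM in wt and 7.99 ± 2.26 CPM in the mutant, and SPNCRNA.1089 averaged 1.90 ± 0.174 and 4.91 ± 1.04 CPM (SD, n = 3 each).

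Among lncRNAs with a gene name, several tied to meiosis had large fold changes that did not pass the test. The RNA of meu3, a gene first found by its rise in meiosis, had 2.00, 2.20 and 1.71 CPM in wt and 24.8, 8.57 and 5.83 CPM in the mutant (log2 fold change 2.55, SE 0.515, edgeR adjusted p = 0.0559). The long isoform of sme2 (meiRNA) had 4.11, 6.55 and 3.37 CPM in wt and 16.5, 10.5 and 9.55 CPM in the mutant (log2 fold change 1.23, SE 0.311, edgeR adjusted p = 0.0868). In both, no mutant library overlapped a wt library, and DESeq2 gave adjusted p-values of 9.71e-06 and 0.00424. The poly(A)-bearing RNA prl50, 141 bases from the meiotic recombination gene meu13, had 1.45, 0.734 and 0.854 CPM in wt and 3.79, 2.76 and 2.46 CPM in the mutant (log2 fold change 1.43, edgeR adjusted p = 0.0612).

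Some marker mRNAs of mating and meiosis also rose. Of 17 such genes, 15 were tested, and 7 of them rose (fus1, mei3, mfm1, rec10, map1, mei2 and mek1; background 2.29%) and none fell by edgeR. With DESeq2 10 were called, all higher, and with limma voom 3. The median log2 fold change of the 15 was 1.16, from −0.27 (meu10, adjusted p = 0.667) to 2.77 (mei3), and their summed level was 104, 103 and 114 CPM in wt and 372, 230 and 192 CPM in the mutant. The septin gene spn5 was at 0 in every library, mutant and wt. For spn6, of whose 1899 bases 58 are its own, there was 1 count in mutant replicate 1 and 0 in every other library. In the summed marker level the mutant libraries ranked replicate 1, 2, 3, as in omt3, meu3 and sme2. That order is not particular to meiotic RNAs. It was also that of the medians over the 244 lncRNAs (0.97, 0.57 and 0.36) and over all features tested (0.24, 0.08 and 0.05). The part of cells in mating or meiosis in the lncRNA values was not tested.

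Named lncRNAs of growing cells showed smaller differences, none of them called. Because the libraries were enriched with oligo-dT, their values need not reflect the total amounts of these RNAs. The RNase P RNA gene rrk1, whose RNA is part of the enzyme that trims the 5′ ends of tRNA precursors, had 4.01, 2.36 and 3.57 CPM in wt and 5.00, 4.18 and 3.42 CPM in the mutant (log2 fold change 0.22, edgeR adjusted p = 0.643). The groups overlapped. The primary transcript of the snoZ snoRNA cluster had 3.61, 2.15 and 3.37 CPM in wt and 7.57, 4.54 and 2.06 CPM in the mutant (log2 fold change 0.49, edgeR adjusted p = 0.549), and SPNCRNA.1650, another snoRNA primary transcript, had a log2 fold change of 0.29 (adjusted p = 0.477). For fbp1-ot2, transcribed upstream of the glucose-repressed gene fbp1, the levels were 1.90, 1.36 and 2.56 CPM in wt and 2.27, 3.11 and 2.06 CPM in the mutant (log2 fold change 0.24, edgeR adjusted p = 0.698).

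The antisense transcript cti6-antisense-1 had 1.40, 1.68 and 1.66 CPM in wt and 5.50, 2.96 and 2.76 CPM in the mutant, without overlap (log2 fold change 1.10, SE 0.298, edgeR adjusted p = 0.101). The other named lncRNAs, prl21, prl24, prl36, prl37, prl38, prl42 and prl51, had log2 fold changes from 0.24 (prl38) to 0.95 (prl36), with edgeR adjusted p-values from 0.137 (prl36) to 0.669 (prl21).

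SPNCRNA.757 was among the 3 lncRNAs with the highest mutant level, together with SPNCRNA.1382 and SPNCRNA.1601. It had 4.46, 0.996 and 4.77 CPM in wt and 16.4, 15.7 and 8.24 CPM in the mutant (log2 fold change 1.85, SE 0.512, edgeR adjusted p = 0.104). Within wt, replicate 2 stood apart at 0.996 CPM, while every mutant library lay above every wt library. It overlaps ssc1, a gene of a mitochondrial Hsp70, by 29 bases on the opposite strand.

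Few lncRNAs were lower in the mutant. SPNCRNA.576 was the one in which every mutant library lay below every wt library on CPM, at 3.06, 3.77 and 3.37 CPM in wt and 2.57, 1.99 and 2.86 CPM in the mutant (log2 fold change −0.58, SE 0.244, edgeR adjusted p = 0.219). Only 99 of its 2584 bases were its own, the rest lying opposite other features. SPNCRNA.359, annotated as a centromeric lncRNA, had 2.31, 2.46 and 2.06 CPM in wt and 1.67, 2.19 and 1.61 CPM in the mutant (log2 fold change −0.44, SE 0.254, edgeR adjusted p = 0.356), with overlap between the groups.

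The lncRNAs were also described by level and annotation. At 1 to 2 CPM in wt, 81 lncRNAs had a median log2 fold change of 0.68 with 6 called (7.41%), at 2 to 3 CPM 73 had 0.50 with 4 called (5.48%), and at 3 to 5 CPM 90 had 0.47 with 5 called (5.56%), beside 2.29% of all features tested. Spearman's rank correlation with the wt level was −0.25, as a description across genes that share libraries, and the rule fixed this axis. The 36 possible alternative UTRs had a median of 0.74 with 6 called (16.7%), the 7 poly(A)-bearing RNAs 0.47 with 0 called, and the 201 others 0.50 with 9 called (4.48%).

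By position, the 89 lncRNAs that overlap no other feature had a median log2 fold change of 0.57 with 6 called (6.74%), the 135 that overlap a feature on the opposite strand 0.50 with 7 called (5.19%), and the 17 that overlap on the same strand only 0.72 with 2 called (11.8%). Chromosome I held 11 of the 15 calls (10.4% of its lncRNAs, median 0.54), chromosome II 3 (3.57%, median 0.46) and chromosome III 1 (1.96%, median 0.66). Those within 100 bases of a coding gene, or overlapping one, had a median of 0.52, and the 10 more than 1000 bases away had 0.60. No test of the differences between these classes was made.

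Other weak features are set beside them here. Of 183 tested coding genes at 1 to 5 CPM in wt, 10 were called higher (5.46%), with a median log2 fold change of 0.29, and of the 51 among them that overlap nothing 5 were called (9.8%), with a median of 0.97. The well-expressed lncRNAs had a median of 0.22 with 9 of 158 called (5.7%). A positive fold change was found in 76.5% of the 183 coding genes, 86.3% of the 51 and 74.7% of the well-expressed lncRNAs (background 50.7%). Every mutant library lay above every wt library on the TMM scale in 30.6%, 52.9% and 29.7% of them (background 16.7%). Among the near-silent lncRNAs 136 of 1133 passed the filter on low counts and 14 were called higher (10.3%). Those that passed did so in part through the mutant libraries, so their values support nothing.

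**Figure D4:**
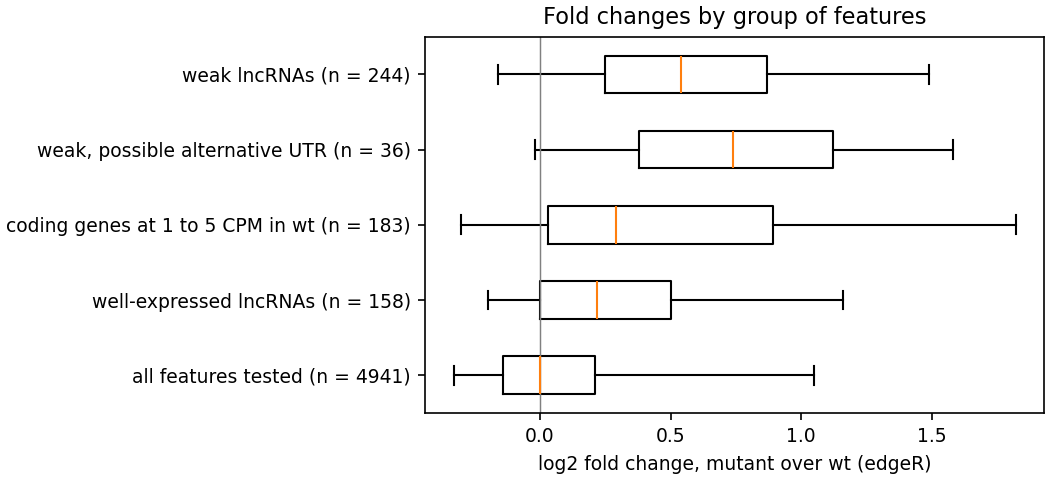
Log2 fold change, mutant over wt (edgeR), by group of features. Boxes span the quartiles, the line is the median and whiskers run from the 5th to the 95th percentile. The weakly expressed lncRNAs have a median of 0.54, all features tested 0.00 and the 183 tested coding genes at 1 to 5 CPM in wt 0.29.

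The gain was set on a scale per length, as CPM above the wt mean per kb of bases that no other counted feature covers. For the 89 weakly expressed lncRNAs that overlap nothing, the median gain was 3.93, 1.93 and 1.31 CPM per kb in mutant replicates 1, 2 and 3, and −0.171, 0.322 and −0.137 in the wt libraries. For the 51 weak coding genes that overlap nothing it was 5.61, 2.31 and 1.03 CPM per kb in the mutant, in the same order of libraries. After the median gain of these coding genes was taken from every feature in each mutant library, the median log2 fold change of the lncRNAs was −0.32 (all features tested −0.10), and 1 of the 15 calls was kept, SPNCRNA.1382 (log2 fold change 1.57, edgeR adjusted p = 0.0221; 0.685% of all features were called higher). The 15 had a median log2 fold change of 1.58 before and 1.15 after the subtraction. SPNCRNA.383 had 1.34 after it and SPNCRNA.80 had 1.32, while SPNCRNA.834, SPNCRNA.811 and SPNCRNA.1089 had 0.21, 0.11 and 0.10. The 51 coding genes include the mating and meiosis markers mfm1, mek1 and map2, with log2 fold changes of 1.80, 1.47 and 0.97. Their median gain is therefore not that of a set of unchanged genes, and the subtraction cannot show what is particular to lncRNAs. What this shared gain stands for was not tested.

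**Figure D5:**
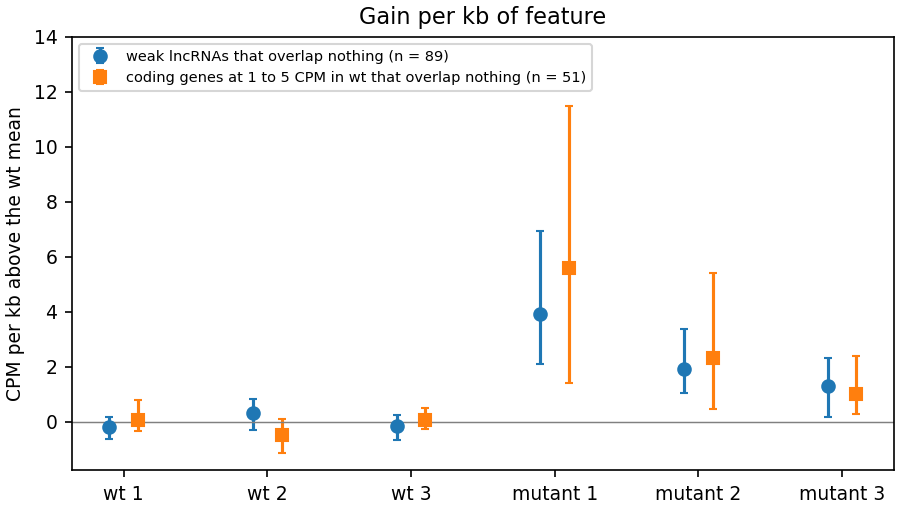
Median gain over the wt mean, in CPM per kb of own length, in each library for the 89 weakly expressed lncRNAs and the 51 weak coding genes that overlap no other feature, with bars from the first to the third quartile. In both groups the 3 mutant libraries lie above 0 in the order replicate 1, 2, 3, at 3.93, 1.93 and 1.31 CPM per kb for the lncRNAs.

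Counts depended in part on the bases a feature has to itself. Of 202 lncRNAs with no base of their own 199 were at 0 in every library, against 41 of 312 that overlap nothing, and of 347 coding genes with no base of their own 320 were at 0. Overlap does not account for every 0. The mRNA decay gene dcp2 was at 0 in every library with all its 2846 bases its own, and the reason was not tested. The lncRNAs of the set were 188 to 4561 bases long (median 930), with a median of 610 bases of their own. Spearman's rank correlation between own length and log2 fold change was 0.33, given as a description.

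Genes known for keeping lncRNAs low had small fold changes. Of 31 tested genes of nuclear RNA turnover and RNA elimination, edgeR called 0, DESeq2 called 1 lower and limma voom 0, with a median log2 fold change of −0.05 and a range from −0.31 to 0.25. A positive fold change was found for 9 of the 31 (background 50.7%). An unadjusted p under 0.05 in edgeR was found for 7 (22.6%; background 22.6%, both counted in either direction). By direction the list did not match the background, with 2 of the 31 higher (background 14.5%) and 5 lower (background 8.12%). The 3 of smallest p were the TRAMP subunit air1 at −0.26 (edgeR adjusted p = 0.136), the exosome subunit rrp40 at −0.26 (adjusted p = 0.145) and the exosome subunit mtr3 at −0.21 (adjusted p = 0.171).

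Of 17 tested genes of cytoplasmic mRNA decay edgeR, DESeq2 and limma voom called 0, and 7 had a positive fold change (background 50.7%). One of them, the exonuclease gene dis32, was the only gene of the 17 with an unadjusted p under 0.05 in edgeR (5.88%; log2 fold change 0.32, edgeR adjusted p = 0.0972). Of 24 tested chromatin suppressors of cryptic transcription, edgeR and limma voom called 0 and DESeq2 called 1 higher, and 6 had a positive fold change (background 50.7%). An unadjusted p under 0.05 in edgeR was found for 4 (16.7%, background 22.6%), 1 higher (background 14.5%) and 3 lower (background 8.12%). The 3 of smallest p were cph1 at 0.30 (edgeR adjusted p = 0.0853), the histone chaperone gene asf1 at −0.23 (adjusted p = 0.136) and the histone deacetylase gene clr6 at −0.22 (adjusted p = 0.17). In this list spt16 and clr3, like swd22 of the nuclear RNA turnover list, have no base of their own and were listed at 0 in every library. These levels are of mRNA and say nothing of protein amount or activity.

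Depth limits what can be said of single lncRNAs. With a median of 47 counts in a wt library and a median variation of 21.5% between wt replicates, a lncRNA that was not called is not shown to be unchanged.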

How the data were processed

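The authors deposited raw counts per annotated feature for each of the 6 libraries. The submitters' processing notes name HISAT2, HTSeq, DESeq2 and the genome build ASM294v2. Their versions and the strand setting of the counting were not given in the sources used here. The genes spt16 and clr3 lie wholly opposite other counted features and were at 0 in every library. Most reads over such overlaps therefore seem to have been left out, and a 0 there does not show that RNA was absent. Reads of either strand may be mixed in the bases that a feature has to itself. The authors' deposited table (log2 fold change, standard error, p-value and its adjusted form) was read only beside the results, and 18 deposited columns of normalized values were not used.

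The members and the gene lists were chosen with earlier results of these data known. Levels are CPM over the library total. The test was edgeR 4.0.16 (quasi-likelihood, robust, TMM, filterByExpr with a minimum count of 10 and a minimum total of 15) in R 4.3.3, fitted to 4941 features in all 6 libraries with a term for genotype alone. P-values were adjusted by Benjamini-Hochberg over all of them and called under 0.05. SEs were derived from the test statistic. Fold changes are mutant over wt. Per-library log2 ratios used a pseudocount of 0.1 CPM. Alternatives used DESeq2 1.42.0 and limma 3.58.1 (voom). The fit was tested on simulated counts with 200 changed genes. Among the weakly expressed lncRNAs it recovered 0 of 34 changes of 1.5-fold, 5 of 33 of 2-fold and 29 of 33 of 4-fold. It called 7 unchanged genes.

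Names, lengths, overlaps and distances came from the RefSeq annotation of ASM294v3, matched by identifier. No coordinates are given because the builds differ. Promoter motifs were not analysed here, and 1 neighbouring gene is not reported here. Named lncRNAs are those called, up to 5 of the largest positive and 5 of the most negative fold change without overlap between genotypes, 3 at each side of each limit of the rule, the 3 highest in the mutant and those with a gene name. From the lists of RNA turnover and cryptic transcription genes, called genes and up to 3 of smallest p are named. SPNCRNA.359, SPNCRNA.1600 and SPNCRNA.1650, and the neighbouring coding genes, were named after their values were seen. Replicates are those the labels call biological. No 2 libraries of a genotype agreed within sampling noise. Precision is limited by counts of 8 to 142 per lncRNA and wt library.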

Additional observations from a re-analysis of the deposited data

How the results depend on the processing

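The count of lncRNAs higher in the mutant (15 by edgeR) was 48 with DESeq2, 8 with limma voom, 9 among the 163 lncRNAs at 2 to 5 CPM, 6 among the 89 that overlap nothing, and 92 without wt replicate 2 and mutant replicate 3, an alternative chosen after seeing the data. Leaving out each library in turn gave 0 to 15 (0% to 2.91% of all features), with 48 to 108 lncRNAs higher at an unadjusted p under 0.05 (8.78% to 16% of all features), medians of 0.41 to 0.63 on the log2 scale and share ratios of 1.49 to 1.88. The cause was not tested. The other alternatives for scaling, filter and choice of lncRNAs gave 13 to 17 calls and medians of 0.53 to 0.68, apart from the 2 to 5 CPM set at 0.47. Scaling by library totals alone moved the median of all features by 0.13. The median of the lncRNAs in the authors' deposited table was lower than in these fits, at 0.3. SPNCRNA.1382 kept its call in 12 of 16 alternatives and SPNCRNA.811 in 2 of 16.

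With the replicate number as a block, edgeR called 0 lncRNAs (72 higher at an unadjusted p under 0.05, against 11.4% of all features; median 0.53) and 0 features in all. Libraries of equal number had correlations of 0.444, −0.493 and −0.535 in their deviations from the group means, so the numbers were not taken to pair them. The highest correlation of a wt with a mutant library was 0.658, between wt replicate 2 and mutant replicate 3. What these 2 libraries share was not tested.

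Subtracting the shared gain per kb left 1 lncRNA higher and 1 lower, and the median was −0.32. The lncRNA lower was SPNCRNA.359 (adjusted p = 0.0436), whose 3 mutant counts became 0 by the subtraction. Of the 244, 59 were at 0 in at least 1 mutant library after it, and 84 had a positive fold change. Single log2 fold changes that turned negative were −0.90 for rrk1, −0.74 for fbp1-ot2, −0.64 for cti6-antisense-1, −1.79 for prl38, −0.83 for prl21, −0.37 for prl24, −0.95 for prl37 and −0.66 for snoZ; none was called.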
